A study of Mus musculus with 4 samples.

Results

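The astrocyte identity and reactivity genes described here are 38 genes that spinal astrocytes use to hold their shape, to move water, ions and transmitters, to supply neurons and to respond to injury. They were 38 of the 30222 gene names on the array, taken as the probes whose gene name in the array files equals a member. Where a gene had several probes, the probe with the highest mean level stood for the gene and the others were compared with it. The arrays carried the RNA of slices of the lumbar spinal cord from male mice of the outbred ICR stock, a few weeks old. The mice were studied 7 days after partial sciatic nerve ligation (PSL). In PSL part of the nerve of a hindlimb is tied, which gives a lasting pain hypersensitivity. In sham+PSL mice the adrenal glands were exposed and left in place, and in ADX+PSL mice both adrenals, the source of circulating glucocorticoid, were removed and saline was given to drink. Slices were prepared at ZT10 and ZT22, the number being hours after lights-on. These are the times of high and of low circulating glucocorticoid in sham+PSL mice. The comparisons therefore ask which transcripts differ between these times when the hormone rhythm is present, and which differ when the adrenals are gone. Each of the 4 groups (sham+PSL ZT10, sham+PSL ZT22, ADX+PSL ZT10 and ADX+PSL ZT22) had 1 array, and all 4 arrays lay on 1 slide. There was no unoperated mouse and no mouse without ligation among them, and how many mice gave each RNA and from which side of the cord were not given in the sources used here. ADX mice lack adrenal catecholamines and mineralocorticoid as well as glucocorticoid, so the operation does not isolate the latter hormone.

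Astrocytes are glial cells whose processes wrap synapses and blood vessels. They clear glutamate and potassium, carry water through channels at their vessel-facing endfeet, turn glutamate into glutamine for neurons, and secrete lipoproteins and matrix proteins. After injury to the nervous system, including a cut or tied peripheral nerve, they enlarge and make more of the filament protein GFAP and of secreted and surface proteins such as lipocalin and CD44, a state called reactivity that is driven by cytokines acting through STAT3 among other signals. In the dorsal horn, reactive astrocytes are studied for their part in lasting pain.

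A level below is the linear brightness of a probe in the deposited value table, in arbitrary units and put on a common scale across the 4 arrays. A probe was well above background where the scanner software had set that flag for its spot. All 38 members had a brightest probe well above background on all 4 arrays, so each member has a measured level in each group. Between 65.1% and 70.1% of the 39429 probes were well above background on an array, and no spot was saturated. A log2 ratio is the difference of 2 log2 levels, so that 1 is a doubling and -1 a halving. The time ratio sets ZT10 over ZT22 within an operation, and the operation ratio sets ADX+PSL over sham+PSL at a time point, both as log2. A gene was counted as past the limit where its levels differed by more than 1.5-fold, a log2 ratio of 0.58 in size. The spot error, formed from the signal error that the scanner software gives for a spot, came to 0.20 for a typical log2 ratio of a member. It ran only from 0.204 to 0.214 over the members in the 4 comparisons, nearly the same for bright and dim probes. It therefore tells little of how noisy a single probe was. It covers reading the array only, and with 1 array per group no ratio has a replicate check. The number of arrays limits the precision, and differences between mice of a group could not be measured.

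The tissue label was checked against markers of spinal cell types. All 10 neuronal, 10 oligodendrocyte-lineage and 10 microglial markers were well above background on the 4 arrays. So were 33 further astrocyte genes, with the exception of Hes1 on the ADX+PSL ZT22 array. The summed level of the 38 members was 1062816 and 1045541 in sham+PSL mice at ZT10 and ZT22, and 1076054 and 1007371 in ADX+PSL mice. The 4 sums were close to each other, but the brightest genes weigh most in them. On the sham+PSL ZT10 array Aldoc read 206282.5 and Sparcl1 170912, beside 15516 for Gfap, so a sum says little about most single members. The brightest member probe was that of Aldoc, for the glycolytic enzyme aldolase C, on both ZT10 arrays and that of the matrix protein gene Sparcl1 on both ZT22 arrays.

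Most members stayed inside the limit in all 4 pairwise comparisons. Past 1.5-fold in at least 1 of the 4 were 9 of the 38, namely Gfap, Slc4a4, Slc14a1, Mt3, Itih3, Agt, Lcn2, Timp1 and Cd44. The other 29 passed it in none of the 4. The share of all genes past it in at least 1 comparison is not given, so this count of 9 is not a result about the members as a group. In sham+PSL mice Itih3 and Agt were higher at ZT10 than at ZT22, 2 of 38 against 2.63% of 19628 genes, and Timp1 was lower, 1 of 38 against 4.04%. In ADX+PSL mice Slc4a4, Lcn2 and Agt were higher at ZT10, 3 of 38 against 1.90% of 19330 genes, while Gfap and Slc14a1 were lower, 2 of 38 against 3.24%. Set against sham+PSL at ZT10, the ADX+PSL array had Cd44 higher, 1 of 38 against 3.39% of 20044 genes, and Gfap lower, 1 of 38 against 3.71%. At ZT22 Mt3 was higher with adrenalectomy, 1 of 38 against 3.03% of 19160 genes, and Slc4a4 and Timp1 were lower, 2 of 38 against 3.37%. At the share of all genes, 38 members would give between 0.721 and 1.54 genes in these 8 counts, so each count lies within 3 genes of that share and says little about the members as a group. Each array enters 2 of the 4 comparisons, so the 4 sets of ratios are not independent.

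The median time ratio of the members was -0.03 in sham+PSL mice and 0.11 with adrenalectomy, beside 0.00 and -0.00 over all genes measured. Time ratios were above 0 for 17 members and below for 21 in sham+PSL mice, where 9909 of 19628 genes were above and 9691 below, and above for 28 and below for 10 in ADX+PSL mice, where 9621 of 19330 genes were above and 9687 below. The median operation ratio was -0.01 at ZT10 and -0.09 at ZT22, beside 0.00 and 0.01 over all genes. Operation ratios were above 0 for 19 members and below for 19 at ZT10, where 10189 of 20044 genes were above and 9829 below, and above for 14 and below for 24 at ZT22, where 9958 of 19160 were above and 9184 below. Averaged over the times, 12 members were higher and 26 lower with adrenalectomy, where 9914 of 19055 genes were higher and 9141 lower. The median of these averaged differences of the members was -0.07. It was 0.01 without the ADX+PSL ZT22 array, between -0.11 and -0.06 with another array left out, and 0.00 without normalization between arrays. Averaged over the operations, 19 members were higher and 19 lower at ZT10, where 9717 and 9338 genes were. Without normalization between arrays the ADX+PSL time median of the members was -0.00 and the ZT22 operation median 0.05, a setting that put the medians of all genes at -0.11 and 0.13.

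**Figure D1:**
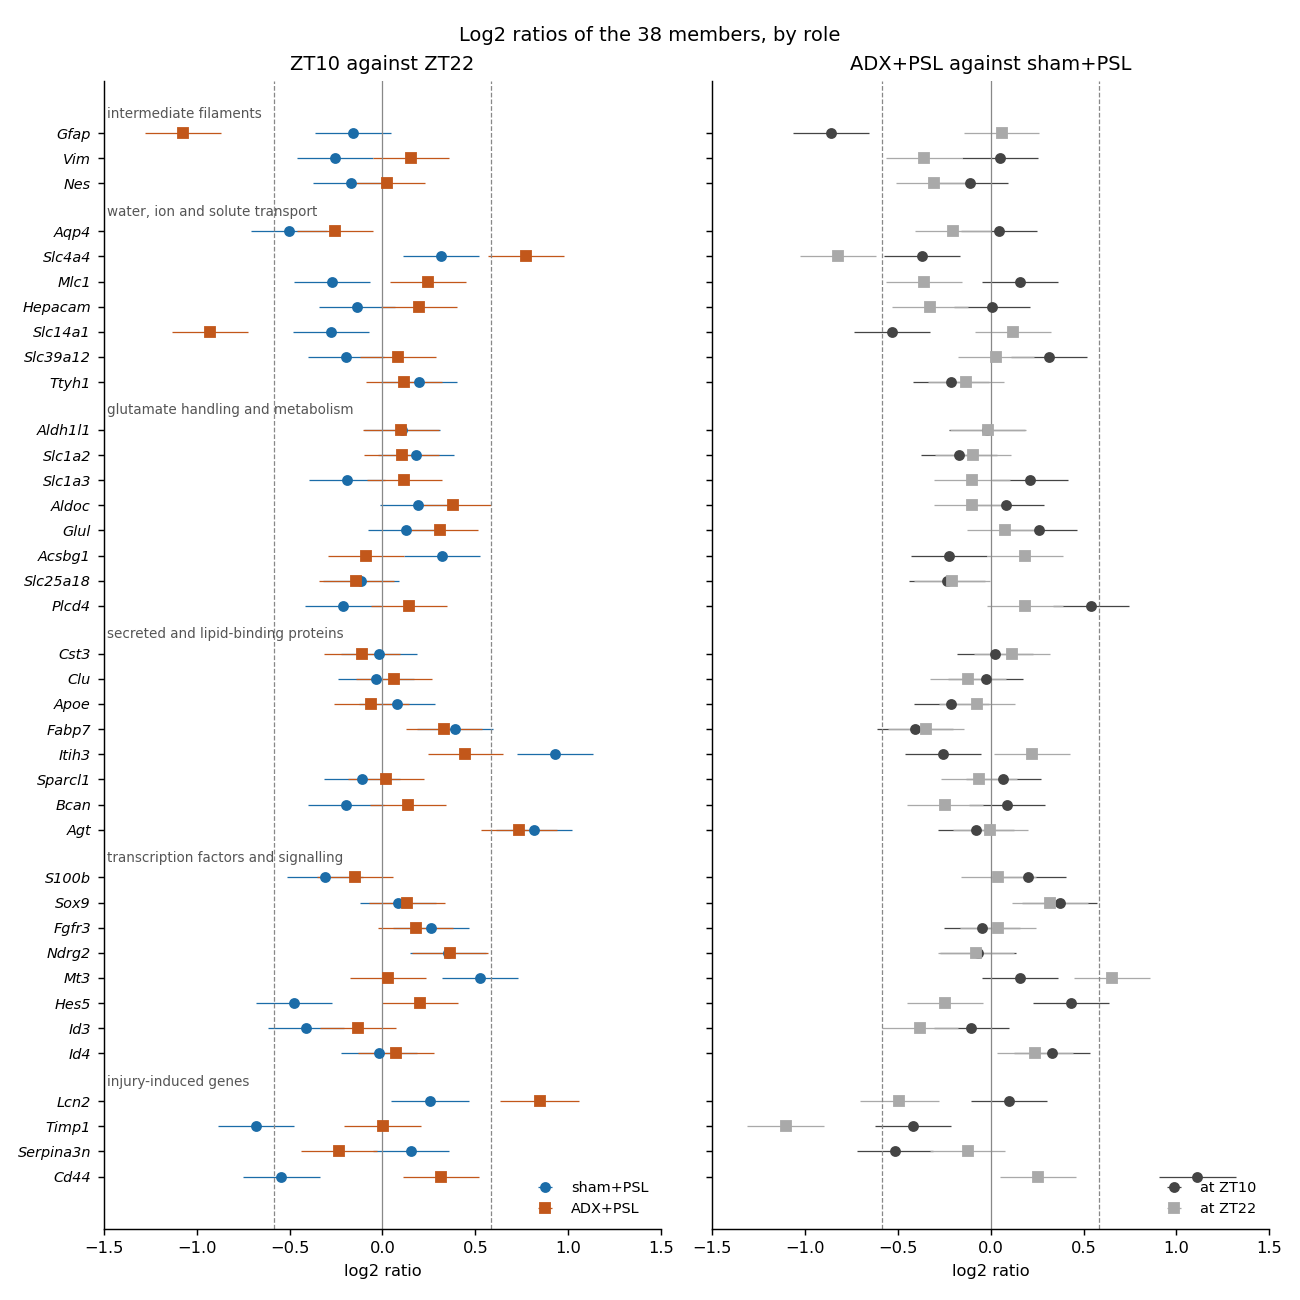
Log2 ratios of the 38 members, grouped by role, with the time comparisons (ZT10 to ZT22, in sham+PSL and in ADX+PSL) and the operation comparisons (ADX+PSL to sham+PSL, at ZT10 and at ZT22) in separate panels. Each point is 1 gene in 1 comparison, the bars are the spot error and not a spread between mice, and dashed lines mark 1.5-fold. Most points sit inside the lines, with Agt at 0.81 and 0.73 in the time panel and Cd44 at 1.11 and Timp1 at -1.10 in the operation panel among those outside.

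A second description takes the operations and times as pairs of arrays. Both ADX+PSL levels lay above both sham+PSL levels for 7 members (Sox9, Cst3, Mt3, Slc39a12, Id4, Cd44 and Plcd4), against 19.2% of 19055 genes. For 9 members (Slc4a4, Clu, Apoe, Fabp7, Nes, Timp1, Serpina3n, Slc25a18 and Ttyh1) both lay below, against 15.7%. Both ZT10 levels were above both ZT22 levels for 9 members (Aldh1l1, Slc1a2, Aldoc, Glul, Fgfr3, Ndrg2, Itih3, Lcn2 and Agt), against 17.5%. For 5 members (Gfap, Aqp4, S100b, Slc14a1 and Id3) both ZT10 levels were below, against 15.9%. At those shares 38 members would give 7.29, 5.95, 6.64 and 6.02 genes, so these counts too are near the background. An additive limma fit of operation and time over 28845 probes, which has 1 residual degree of freedom, called 0 probes and thus 0% for either factor at an adjusted p under 0.05. At an unadjusted p under 0.05 it had 1803 probes (6.25%) for operation and 1420 probes (4.92%) for time, among them 2 members each.

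Filament proteins came to 3 members. Gfap, whose product is the astrocyte intermediate filament read in most studies of reactivity, had a level of 15516 in sham+PSL mice at ZT10 and 17308 at ZT22, and of 8565 and 18028 in ADX+PSL mice at the same times. The ADX+PSL ZT10 array stood apart as low, and the other 3 arrays lay close together. The time ratio was thus -1.07 in ADX+PSL mice and -0.16 in sham+PSL mice, and the operation ratio was -0.86 at ZT10 and 0.06 at ZT22. The difference between the time effects was not tested, since the additive fit takes it as error. Fewer cells of a type and less RNA per cell cannot be told apart in RNA from whole tissue.

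Gfap was read by 3 probes at separate places, and they did not give the same pattern. The starts of the probes, 30 of their 60 bases, are shown because the low reading depends on which of them is taken. They lie on the minus strand of mm9, the build the array files use.

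Gfap A_52_P52303: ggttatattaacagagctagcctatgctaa
Gfap A_55_P2157245: caaaaggctcacaatacaagttgtcccaat
Gfap A_55_P2157250: tttgaggaactgaaacgtgttgtgttcaag

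The first lies at chr11:102751813-102751872 and the second at chr11:102752726-102752785, and the array files assign both to transcript NM_001131020. The last lies at chr11:102748864-102748923 and is assigned to transcript NM_010277. Both transcripts belong to Gfap in the RefSeq GRCm38.p6 gene table, and which exon or untranslated region of them a probe falls in was not analysed here. The second probe had levels of 901 and 988 in sham+PSL mice at ZT10 and ZT22 and 571 and 912 in ADX+PSL mice, again with the ADX+PSL ZT10 array lowest. Its time ratio in ADX+PSL mice was -0.68. The remaining probe, of NM_010277, read 9383 and 12097 in sham+PSL mice and 10028 and 10455 in ADX+PSL mice. On that probe the ADX+PSL ZT10 array was not the lowest, and the 4 levels stayed within 1.5-fold of each other. With all 3 probes averaged the ADX+PSL time ratio was -0.60, still past the limit, and the operation ratio at ZT10 was -0.47, inside it.

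**Figure D2:**
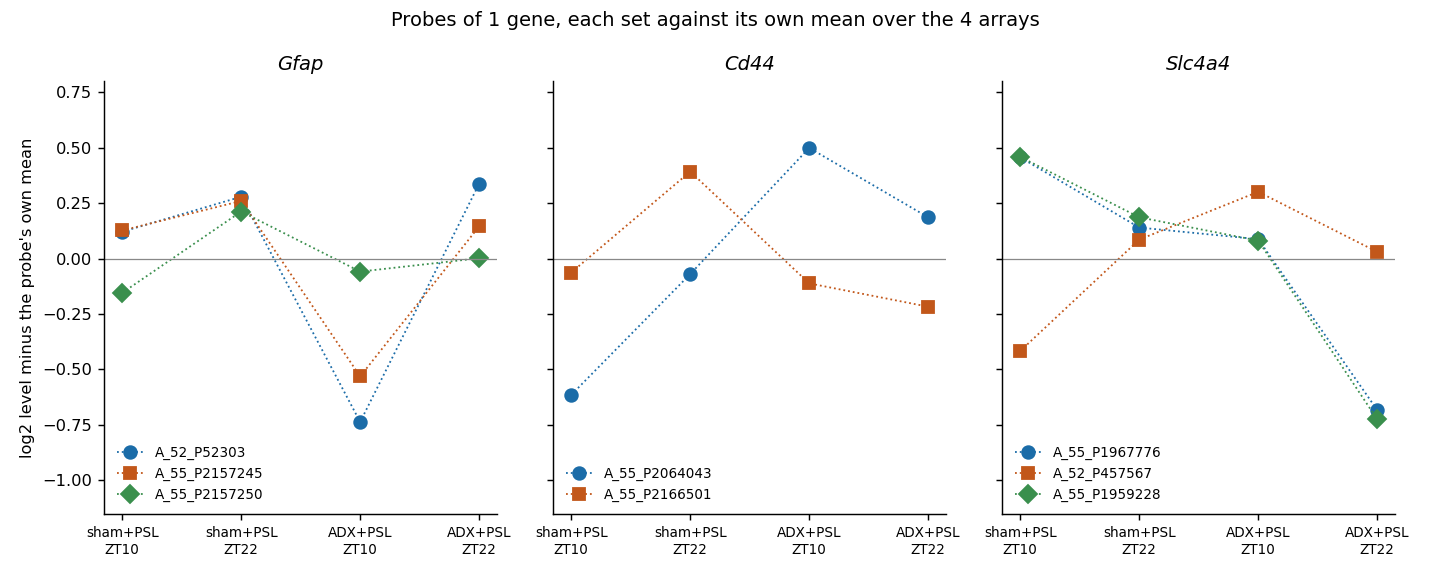
Log2 level of each probe of Gfap, Cd44 and Slc4a4 minus the mean of that probe over the 4 arrays, by array. Each point is 1 probe on 1 array and dotted lines join the points of a probe. Of the Gfap probes, A_52_P52303 and A_55_P2157245 are lowest on the ADX+PSL ZT10 array and A_55_P2157250 is not, with time ratios in ADX+PSL mice of -1.07, -0.68 and -0.06.

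The other filament genes differed less. Vim, for vimentin, which is also made by fibroblasts, endothelium and microglia, read 2606 and 3115 in sham+PSL mice at ZT10 and ZT22, and 2702 and 2432 in ADX+PSL mice. The sham+PSL ZT22 array was the highest and the ADX+PSL ZT22 array the lowest, so that the operations overlapped. Nes, for nestin, a filament of progenitors and of reactive astrocytes, had a mean operation ratio of -0.21 over the times, with both ADX+PSL levels below both sham+PSL levels.

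Water, ion and solute transport was the role of 7 members. Slc4a4, the electrogenic sodium bicarbonate cotransporter, had levels of 4885 and 3924 in sham+PSL mice at ZT10 and ZT22, and of 3784 and 2219 in ADX+PSL mice. It was lowest on the ADX+PSL ZT22 array, and each ADX+PSL level was below each sham+PSL level. The operation ratio was -0.82 at ZT22 and -0.37 at ZT10, and the time ratio 0.77 in ADX+PSL mice and 0.32 in sham+PSL mice. In the limma fit the operation effect was -0.60 with a standard error of 0.18, and its unadjusted p of 0.046 became 0.795 after Benjamini-Hochberg adjustment, with both ADX+PSL arrays on the low side. Of its 3 probes, 2 share 48 bases and are nearly the same measurement, and their starts are printed with those of the remaining probe to show this, with bases that lie inside another Slc4a4 probe in capitals.

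Slc4a4 A_55_P1967776: ATTCCTCGAACGCCACACATCATGCTGATA
Slc4a4 A_52_P457567: aagaagatgagatattttagcatttatatt
Slc4a4 A_55_P1959228: aagatcctcaacATTCCTCGAACGCCACAC

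They lie on the plus strand of mm9 at chr5:89663838-89663897, chr5:89668602-89668661 and chr5:89663826-89663885. The overlapping probe A_55_P1959228 read 4623 and 3828 in sham+PSL mice and 3559 and 2036 in ADX+PSL mice, the same order of arrays as the brightest probe. A_52_P457567 read 50.6 and 71.7 in sham+PSL mice and 83.2 and 69.0 in ADX+PSL mice, an order in which sham+PSL ZT10 was lowest. On this dim probe the operation ratio was 0.72 at ZT10, so the separate probes of Slc4a4 did not give the same direction there. With all 3 probes averaged the operation ratio at ZT22 was -0.60 and the ADX+PSL time ratio 0.62, both still past the limit.

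Slc14a1, a urea transporter of astrocytes and red blood cells, read 633 and 766 in sham+PSL mice at ZT10 and ZT22, and 438 and 834 in ADX+PSL mice. As with the brightest Gfap probe, the ADX+PSL ZT10 array was the lowest and both ZT22 arrays were above both ZT10 arrays. Its time ratio was -0.93 in ADX+PSL mice and -0.28 in sham+PSL mice, read from a single probe.

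Aqp4, the water channel of the endfeet, had levels of 10567 and 14979 in sham+PSL mice at ZT10 and ZT22, and 10892 and 13022 in ADX+PSL mice. Both ZT10 arrays were lower than both ZT22 arrays, by time ratios of -0.50 and -0.26 that stayed inside the limit. The other Aqp4 probe read 8492 and 13634 in sham+PSL mice and 8275 and 11875 in ADX+PSL mice, again with the ZT10 arrays lower, and its ratio of -0.68 in sham+PSL mice was past the limit while that of -0.52 in ADX+PSL mice was not. The remaining transport members were Mlc1 and Hepacam, which are membrane partners at the endfeet, the zinc transporter Slc39a12, and Ttyh1, a membrane protein of the tweety family. None of these 4 passed the limit on its brightest probe in a pairwise comparison, but the dimmest Ttyh1 probe had a time ratio of 0.69 in ADX+PSL mice where the brightest had 0.11.

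**Figure D3:**
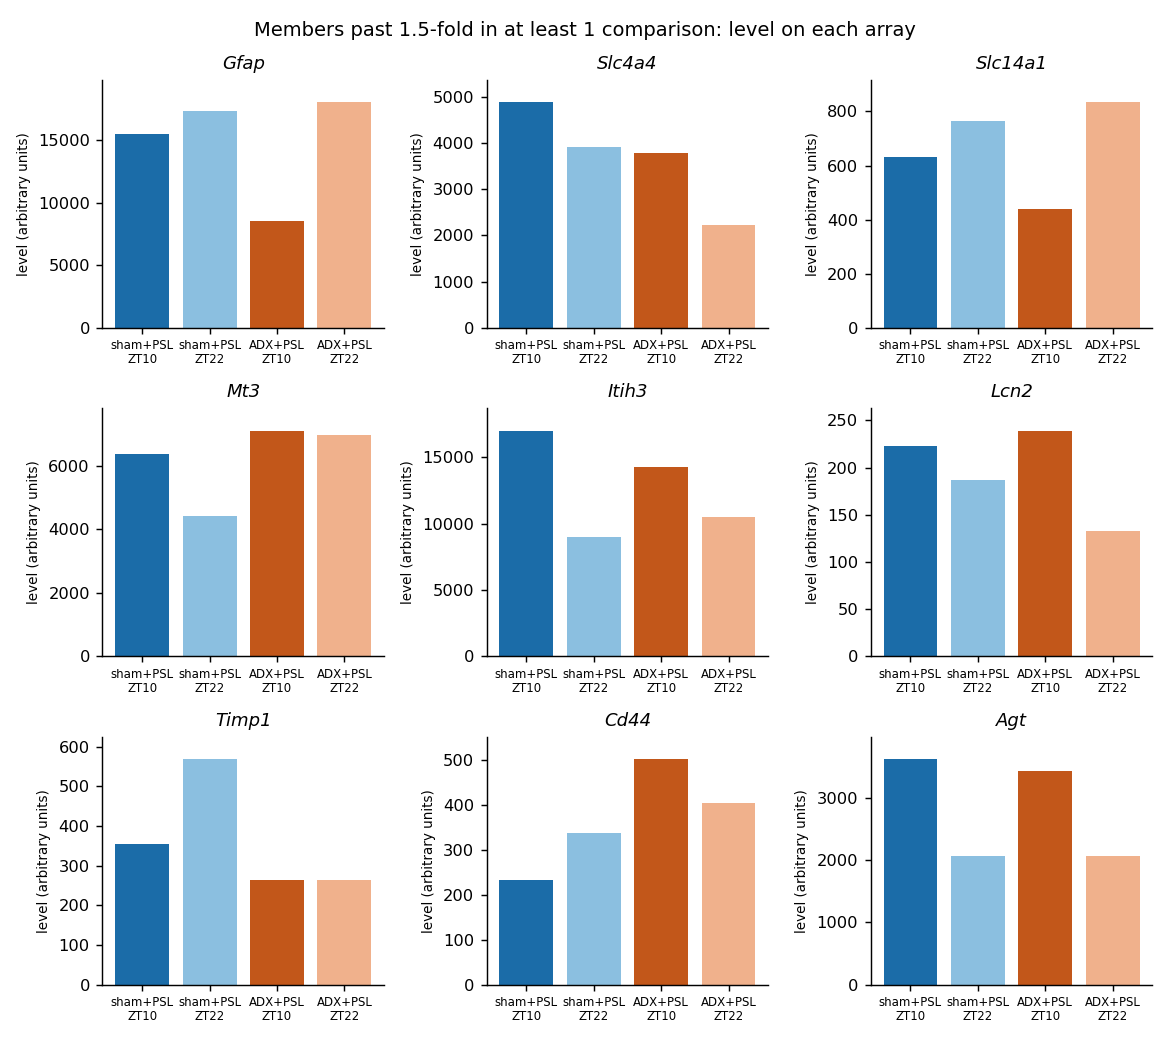
Level of each of the 9 members that passed 1.5-fold in at least 1 comparison, on the 4 arrays, on linear axes that start at 0 and in arbitrary units. Each bar is the brightest probe of the gene on 1 array, with 1 array per group. Gfap is low on the ADX+PSL ZT10 array alone (8565), whereas Agt is high on both ZT10 arrays (3622 and 3425) and low on both ZT22 arrays (2062 and 2061).

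The 8 members for glutamate handling and metabolism passed the limit in none of the 4 pairwise comparisons. Aldh1l1, a folate enzyme used as a general astrocyte marker, read 7303 and 6793 in sham+PSL mice at ZT10 and ZT22, and 7199 and 6721 in ADX+PSL mice. Its ZT10 arrays were slightly above its ZT22 arrays, by a log2 ratio of 0.10 in each operation, which is smaller than the spot error. Slc1a2, the main glutamate transporter of the adult cord, read 5738 and 5071 in sham+PSL mice and 5099.8 and 4749.8 in ADX+PSL mice. The ZT10 level was the higher in each operation, by 0.18 and 0.10, and the other Slc1a2 probes gave ratios of 0.15 and 0.16 in sham+PSL mice and of 0.11 and 0.04 in ADX+PSL mice. Slc1a3, the glutamate transporter GLAST, read 2292 and 2617 in sham+PSL mice and 2654 and 2445 in ADX+PSL mice, with no order by time or by operation.

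Glul, for glutamine synthetase, which turns the glutamate taken up into glutamine, had levels of 26443 and 24187 in sham+PSL mice at ZT10 and ZT22, and of 31623 and 25545 in ADX+PSL mice. The ADX+PSL ZT10 array was the highest, and both ZT10 arrays were above both ZT22 arrays, with log2 ratios of 0.13 and 0.31. Plcd4, a phospholipase C that releases inositol phosphates, read 19698 and 22828 in sham+PSL mice and 28637 and 25921 in ADX+PSL mice. Both ADX+PSL arrays were above both sham+PSL arrays, by 0.54 at ZT10 and 0.18 at ZT22. Its 3 other probes had operation ratios at ZT10 of 0.12, 0.15 and 0.43, the same direction with a smaller size, whereas their time ratios in sham+PSL mice ran from -0.16 to 0.39 beside -0.21 on the brightest probe. Aldoc was higher at ZT10, by 0.19 in sham+PSL and 0.38 in ADX+PSL mice, and Acsbg1, an acyl-CoA synthetase, and Slc25a18, a mitochondrial glutamate carrier, stayed inside the limit in all 4 comparisons.

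Regulators and signalling proteins were 8 members, of which Mt3 alone passed the limit. Mt3, a zinc-binding metallothionein of the nervous system, read 6372 and 4426 in sham+PSL mice at ZT10 and ZT22, and 7106 and 6964 in ADX+PSL mice. The sham+PSL ZT22 array was low and the other 3 were similar, which gave an operation ratio of 0.65 at ZT22 and 0.16 at ZT10. The time ratio was 0.53 in sham+PSL mice and 0.03 with adrenalectomy, neither past the limit. Sox9, a transcription factor that marks astrocyte nuclei, read 679 and 640.4 in sham+PSL mice and 877 and 799.6 in ADX+PSL mice. Both ADX+PSL levels were above both sham+PSL levels, with a mean operation ratio of 0.35. Its probe was printed 10 times on the array, and the SD of log2 signal over the 10 spots was between 0.034 and 0.103 on the 4 arrays. That spread is smaller than the difference but, like the spot error, holds nothing of the variation between mice.

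S100b, a calcium-binding protein of astrocytes and some oligodendrocytes, read 63570.0 and 78767 in sham+PSL mice at ZT10 and ZT22, and 73103 and 81120 in ADX+PSL mice. Both ZT10 arrays were below both ZT22 arrays, by log2 ratios of -0.31 and -0.15. The other 5 regulators were Fgfr3, a growth factor receptor, Ndrg2, an astrocyte protein of the NDRG family, the Notch target Hes5, and Id3 and Id4, which inhibit basic helix-loop-helix factors. Ndrg2 was higher at ZT10 by 0.35 in sham+PSL and 0.36 in ADX+PSL mice. Hes5 had the most negative sham+PSL time ratio of the members not given in full, -0.48, beside 0.20 in ADX+PSL mice. Id3 had operation ratios of -0.10 at ZT10 and -0.38 at ZT22, and Id4 had operation ratios of 0.33 and 0.24.

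Secreted and lipid-binding proteins, 8 members, held Agt and Itih3, the members past the limit as higher at ZT10 in sham+PSL mice. Agt, for angiotensinogen, the precursor of the angiotensins, which astrocytes make in the nervous system, read 3622 and 2062 in sham+PSL mice at ZT10 and ZT22, and 3425 and 2061 in ADX+PSL mice. Both ZT10 arrays were high and both ZT22 arrays low, and at each time the operations gave nearly the same level. The time ratio was 0.81 in sham+PSL mice and 0.73 in ADX+PSL mice, and Agt was the only member past the limit in the same direction in both operations, as were 174 of 19055 genes. No member was past it in opposite directions, as were 101 genes. The time effect of Agt in the limma fit was 0.77 with a standard error of 0.12 and an unadjusted p of 0.0082, the smallest among members, which became 0.932 after adjustment over all probes.

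Itih3, a heavy chain of the inter-alpha-trypsin inhibitor family that binds hyaluronan in the matrix, read 17021 and 8960.1 in sham+PSL mice at ZT10 and ZT22, and 14268 and 10471 in ADX+PSL mice. Both ZT10 levels were again above both ZT22 levels, with the wider gap in sham+PSL mice. The time ratio was 0.93 in sham+PSL mice, past the limit, and 0.45 in ADX+PSL mice, inside it, and whether these ratios differ was not tested. Its unadjusted limma p for time was 0.035 and the adjusted p 0.932, for an effect of 0.69 with both ZT10 arrays on the high side.

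Fabp7, the fatty acid-binding protein of radial glia and astrocytes, read 8187 and 6250.2 in sham+PSL mice at ZT10 and ZT22, and 6179 and 4913 in ADX+PSL mice. It was higher at ZT10 within each operation and lower with adrenalectomy at each time, with log2 ratios of 0.39 and 0.33 for time and of -0.41 and -0.35 for operation, none of these 4 past the limit. The lowest sham+PSL level, at ZT22, and the highest ADX+PSL level, at ZT10, almost met. Apoe and Clu, the main lipoproteins of astrocytes, the protease inhibitor Cst3, the matrix protein Sparcl1 and the proteoglycan core Bcan completed the group. The operation ratio of Apoe was -0.21 at ZT10 and -0.07 at ZT22, and each ratio of Clu, Cst3 and Sparcl1 in the 4 comparisons was smaller than the spot error. The probes of Bcan differed in sign, with -0.20 and 0.27 for time in sham+PSL mice on the brighter and the dimmer probe.

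The promoters of Agt and Itih3 are shown because both ZT10 levels of these genes were above both ZT22 levels by the largest mean differences among members, and that of Gfap because its transcription is known to respond to STAT3. They come from RefSeq GRCm38.p6, where 33 of the 38 members were matched by symbol, and run from 250 bases before to 50 bases after the start of the gene on the strand of transcription, here minus for each. Agt lies at chr8:124569657-124569956, Itih3 at chr14:30923538-30923837 and Gfap at chr11:102897151-102897450. Capitals mark matches to the motifs searched.

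Agt promoter: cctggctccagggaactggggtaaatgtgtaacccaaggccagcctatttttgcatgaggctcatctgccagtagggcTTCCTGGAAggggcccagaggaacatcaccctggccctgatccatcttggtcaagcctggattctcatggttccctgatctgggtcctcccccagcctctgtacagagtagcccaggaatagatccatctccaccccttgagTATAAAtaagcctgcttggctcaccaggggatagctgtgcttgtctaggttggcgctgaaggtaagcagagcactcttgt
Itih3 promoter: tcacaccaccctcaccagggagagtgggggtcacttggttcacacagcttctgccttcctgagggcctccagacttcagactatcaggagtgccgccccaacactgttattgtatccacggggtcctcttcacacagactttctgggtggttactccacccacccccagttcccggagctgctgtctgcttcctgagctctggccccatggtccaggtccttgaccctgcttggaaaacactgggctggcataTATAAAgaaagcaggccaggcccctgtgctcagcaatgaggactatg
Gfap promoter: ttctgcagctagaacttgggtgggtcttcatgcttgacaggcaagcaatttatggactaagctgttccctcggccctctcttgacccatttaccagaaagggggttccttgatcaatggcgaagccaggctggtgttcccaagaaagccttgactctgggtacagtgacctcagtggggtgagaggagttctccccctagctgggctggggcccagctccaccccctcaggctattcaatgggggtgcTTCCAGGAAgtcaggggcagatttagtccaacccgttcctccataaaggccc

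The letters searched, on both strands, were CACGTG (the E-box bound by clock proteins), TTATGTAA (the D-box), AGAACA (a half-site of the glucocorticoid receptor), TTCNNNGAA (the site form bound by STAT proteins) and TATAAA (the TATA box), and no one of these contains another. CACGTG was in 7.24% of 27025 promoters and TTATGTAA in 0.955%, and in 0 of the 33 member promoters. AGAACA was in 19.0% of promoters and in 8 members (24.2%), none of them among the 9 past the limit. TTCNNNGAA was in 8.47% of promoters and in 4 members (12.1%), Gfap, Slc1a3, Acsbg1 and Agt. TATAAA was in 14.2% of promoters and in 7 members (21.2%), Agt and Itih3 among them. A match is a description of the letters and not a site, and a lack of a match says only that the letters are not in this window.

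**Figure D4:**
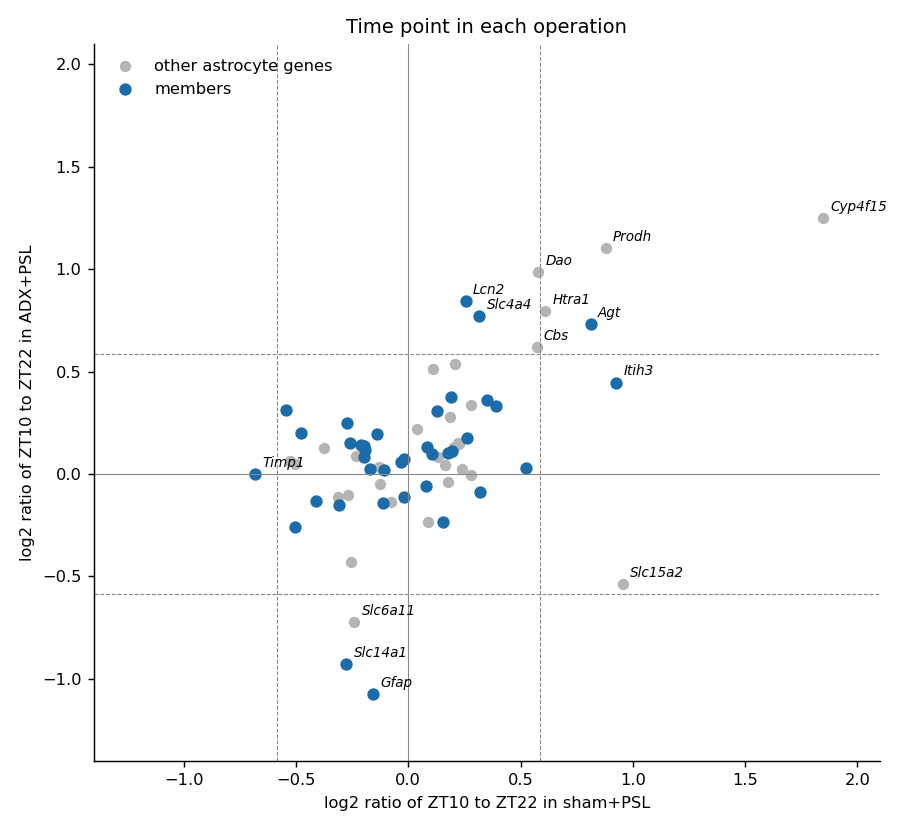
Time ratio (log2, ZT10 over ZT22) on the horizontal axis for sham+PSL mice and on the vertical axis for ADX+PSL mice, for the members and for the other astrocyte genes. Each point is 1 gene, read from its brightest probe, and the dashed lines mark 1.5-fold. Agt (0.81 and 0.73) lies past the limit on both axes with Cyp4f15, Prodh and Htra1 of the other genes, and Gfap (-0.16 and -1.07) lies low on the vertical axis only. The axes have no array in common.

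Of the other astrocyte genes, 33 that are not members, some were past the limit by time. In sham+PSL mice 4 of 33 were past the limit as higher at ZT10 and 0 as lower, against 2.63% and 4.04% of all genes, with a median log2 ratio of 0.16. In ADX+PSL mice 5 of 32 were higher and 1 lower, against 1.90% and 3.24%, with a median of 0.08. Both ZT10 levels were above both ZT22 levels for 15 of 32, against 17.5% of all genes, and below for 5 of 32, against 15.9%. Of the markers of other cells, 5 of 10 neuronal, 4 of 6 red blood cell and 2 of 5 fast muscle genes were above and 0 below. For microglia 0 of 10 were above and 5 below, and for the oligodendrocyte lineage 1 of 10 and 5. Endothelial and mural genes gave 1 of 9 above and 2 below, and the remaining lists gave 0 either way. The part of these cells in the counts was not tested. Cyp4f15, a cytochrome P450, read 258 and 71.7 in sham+PSL mice at ZT10 and ZT22 and 271 and 114 in ADX+PSL mice. Prodh, for the proline-degrading proline dehydrogenase, read 1891 and 1029 in sham+PSL mice and 2439 and 1135 in ADX+PSL mice. Htra1, a secreted serine protease, read 32752 and 21474 in sham+PSL mice and 33755 and 19448 in ADX+PSL mice. In these 3 genes, as in Agt, both ZT10 arrays were past 1.5-fold above the ZT22 array of the same operation. Dao, for D-amino acid oxidase, had a ratio of 0.99 in ADX+PSL mice, and Slc15a2, a peptide transporter, had 0.95 in sham+PSL mice and operation ratios of -0.76 at ZT10 and 0.73 at ZT22. Cbs, for cystathionine beta-synthase, was at 0.62 and the GABA transporter Slc6a11 at -0.72, both in ADX+PSL mice. They complete the counts past the limit by time and were chosen after their values were seen. With adrenalectomy 0 of 33 were higher and 1 lower at ZT10, against 3.39% and 3.71% of all genes, and 2 of 32 were higher and 1 lower at ZT22, against 3.03% and 3.37%. At ZT22 Cyp4f15 was at 0.67 and Lcat, a lipoprotein enzyme, at -0.60.

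Injury-induced genes were the remaining 4 members. Timp1, a secreted inhibitor of matrix metalloproteinases made by reactive astrocytes and by fibroblasts, read 354 and 568 in sham+PSL mice at ZT10 and ZT22, and 265 and 265 in ADX+PSL mice. The sham+PSL ZT22 array was the highest, and both ADX+PSL levels were below both sham+PSL levels. The operation ratio was -1.10 at ZT22 and -0.42 at ZT10, and the time ratio -0.68 in sham+PSL mice and 0.00 with adrenalectomy. The ratio of -0.68 came to -0.58 with the normexp background correction and to -0.56 with the mean signal without background correction, both inside the limit. In the limma fit the operation effect of -0.76 had a standard error of 0.23, an unadjusted p of 0.049 and an adjusted p of 0.798, with both ADX+PSL arrays on the low side.

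Cd44, the surface receptor for hyaluronan, which microglia and fibrous astrocytes also carry, read 232 and 339 in sham+PSL mice at ZT10 and ZT22, and 502 and 404 in ADX+PSL mice. Both ADX+PSL levels were above both sham+PSL levels, and the operation ratio was 1.11 at ZT10 and 0.26 at ZT22. The starts of the brightest probe and of another Cd44 probe that was well above background on all 4 arrays are shown because their readings differed. They lie on the minus strand of mm9 at chr2:102651398-102651457 and chr2:102654278-102654337, and no base of them is shared.

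Cd44 A_55_P2064043: tcagaggcagctggcatcctttgttttgtt
Cd44 A_55_P2166501: gacgagacccggaatctgcagagtgtggac

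The second of these probes read 83.0 and 114 in sham+PSL mice and 80.3 and 74.6 in ADX+PSL mice. On it the sham+PSL ZT22 array was the highest, and its operation ratio was -0.05 at ZT10 and -0.61 at ZT22. The higher reading of Cd44 with adrenalectomy thus rests on the brightest probe, and with the probes averaged the ratio at ZT10 was 0.53, inside the limit. The other 2 Cd44 probes were well above background on none of the 4 arrays. In all, 11 members had several probes, and in 5 of them (Cd44, Gfap, Plcd4, Slc4a4 and Ttyh1) the ratios of 2 probes differed by more than 1.5-fold in a comparison.

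Lcn2, the iron-siderophore carrier lipocalin, which is among the most induced genes of reactive astrocytes, read 223 and 187 in sham+PSL mice at ZT10 and ZT22, and 239 and 133 in ADX+PSL mice. The ADX+PSL ZT22 array was the lowest and both ZT10 arrays were above both ZT22 arrays. The time ratio was 0.85 in ADX+PSL mice and 0.26 in sham+PSL mice, and with a different background correction the former came to 0.55, inside the limit. Serpina3n, a serine protease inhibitor of reactive astrocytes, read 2683 and 2412 in sham+PSL mice and 1880.4 and 2213 in ADX+PSL mice. Both ADX+PSL levels were below both sham+PSL levels, by -0.51 at ZT10 and -0.12 at ZT22. On their brightest probes, Timp1 and Serpina3n were lower and Cd44 higher on both ADX+PSL arrays, and Lcn2 overlapped, while the other measured Cd44 probe was lower on both ADX+PSL arrays.

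Panels of reactive astrocyte genes outside the members were mostly lower with adrenalectomy when the times were averaged, in 6 of 6, 8 of 10 and 6 of 7 genes measured on all arrays for the shared, inflammation-linked and ischaemia-linked panels, where 9141 of 19055 genes were lower. Their median differences were -0.09, -0.46 and -0.23. Both ADX+PSL levels lay below both sham+PSL levels for 2, 6 and 3 genes, against 15.7% of all genes, and above for 0, 1 and 0, against 19.2%. In the same average 15 of 32 other astrocyte genes were lower, with a median of 0.02. Of the markers of other cells, those lower were 9 of 9 for meningeal fibroblasts, 2 of 2 for Schwann cells, 5 of 5 for fast muscle, 8 of 10 for microglia, 10 of 10 for the oligodendrocyte lineage, 6 of 10 for neurons, 5 of 9 for endothelium and mural cells, 1 of 7 for ependymal cells and 0 of 6 for red blood cells. Their medians were -1.87, -1.71, -1.64, -0.29, -0.09, -0.07, -0.06, 0.27 and 0.93 in that order. Both ADX+PSL levels lay below for 9, 2, 2, 4, 1, 2, 3, 1 and 0 of them, and above for 2 neuronal and 3 ependymal genes and for none of the rest. The part of these cells in the panels was not tested. Counts past the limit in the panels, the signals and the markers of other cells below stand beside 2.63% of all genes higher and 4.04% lower for time in sham+PSL mice, 1.90% and 3.24% in ADX+PSL mice, 3.39% and 3.71% for adrenalectomy at ZT10, and 3.03% and 3.37% at ZT22. Of the panel shared by kinds of injury, 6 of 7 genes were measured, since the Steap4 probe stayed near background on all 4 arrays. In sham+PSL mice 3 of 6 were lower at ZT10 and 0 higher, with a median log2 ratio of -0.37, and in ADX+PSL mice 0 of 6 passed the limit, with a median of 0.15. Osmr, the oncostatin M receptor, read 183 and 391 in sham+PSL mice at ZT10 and ZT22 and 274 and 238 in ADX+PSL mice. The chemokine Cxcl10 read 131 and 239.7 in sham+PSL mice and 211 and 147 in ADX+PSL mice, and the asparaginase Aspg read 1096 and 1929 in sham+PSL mice and 1293 and 1421 in ADX+PSL mice. In these 3 genes, as in Timp1, the sham+PSL ZT22 array was the highest. With adrenalectomy 1 of 6 was higher and 1 lower at ZT10, with a median of 0.07, and 0 were higher and 3 lower at ZT22, with a median of -0.57. Cp, for the copper-binding ferroxidase ceruloplasmin, read 502 and 432 in sham+PSL mice and 225 and 205 in ADX+PSL mice, so that both ADX+PSL arrays were low.

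Of the 12 genes of the panel linked to inflammation, 10 were measured. The counts higher and lower were 1 and 0 for time in sham+PSL mice, 0 and 1 in ADX+PSL mice, 0 and 3 for adrenalectomy at ZT10, and 1 and 3 at ZT22, with medians of 0.05, 0.00, -0.19 and -0.43. H2-D1, a class I histocompatibility gene that differs between mouse strains, read 10881 and 953 in sham+PSL mice and 1166 and 4232 in ADX+PSL mice, so that arrays of each operation and each time were both high and low. Serping1, the C1 inhibitor, read 1469 and 1033 in sham+PSL mice and 363 and 480.5 in ADX+PSL mice, low on both ADX+PSL arrays. Fbln5, a matrix fibulin, was at -0.85 with adrenalectomy at ZT10, and the interferon-induced Gbp2 and Psmb8 were at -0.74 and -0.71 at ZT22.

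Of the 12 genes of the panel linked to ischaemia, between 7 and 9 were well above background on an array. The counts higher and lower were 0 and 1 of 8 for time in sham+PSL mice, 1 and 1 of 7 in ADX+PSL mice, 1 and 2 of 9 for adrenalectomy at ZT10, and 0 and 2 of 7 at ZT22, with medians of -0.36, -0.13, -0.24 and -0.25. Cd109, a surface protein that binds transforming growth factor beta, read 33.5 and 64.6 in sham+PSL mice and 70.3 and 37.6 in ADX+PSL mice, high at ZT22 in the former and at ZT10 in the latter. Emp1, an epithelial membrane protein, read 426 and 448 in sham+PSL mice and 275 and 255 in ADX+PSL mice, low on both ADX+PSL arrays as Timp1 was. B3gnt5, a glycosyltransferase, was at -0.62 with adrenalectomy at ZT10, and Cd14, an endotoxin coreceptor, was at -0.73 for time in ADX+PSL mice.

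Signals that act upstream of reactivity were read from 24 genes. The cytokine genes Lif and Tnf were well above background on no array, and Stat3, the transcription factor through which the interleukin 6 family acts on Gfap, gave the brightest probe and read 4233 and 5243 in sham+PSL mice at ZT10 and ZT22 and 3947 and 4637 in ADX+PSL mice. Among genes with both levels well above background, 0 were past the limit as higher in each of the 4 pairwise comparisons, and 2 of 20 were lower for time in sham+PSL mice, 1 of 19 in ADX+PSL mice, 1 of 20 for adrenalectomy at ZT10 and 1 of 18 at ZT22. The medians were -0.10, -0.11, -0.25 and -0.19. Averaged over the times, 17 of 18 genes were lower with adrenalectomy, where 9141 of 19055 genes were, and for 8 of them both ADX+PSL levels were below both sham+PSL levels, against 15.7% of all genes. The markers of other cells in the same average, of which some lists were lower and those of ependymal and red blood cells higher, are given with the panels. Bmp4, a morphogen of the glial lineage, read 818 and 1385 in sham+PSL mice and 578 and 854 in ADX+PSL mice, highest on the sham+PSL ZT22 array. Ednrb, the endothelin receptor of astrocytes, read 1323 and 1680.2 in sham+PSL mice and 1017 and 1998 in ADX+PSL mice. Its lowest array was ADX+PSL ZT10, as on Gfap probes A_52_P52303 and A_55_P2157245 but not on Gfap probe A_55_P2157250. Socs3, the feedback inhibitor of STAT3, was at -0.63 with adrenalectomy at ZT10, and Il6 was at -0.98 for time in sham+PSL mice, the arrays on which it was well above background. Edn1, for endothelin, was dim on the array of sham+PSL mice at ZT22, not well above background, and the bright ZT10 level of these mice was at least 1.93-fold higher. With adrenalectomy at ZT22 it was at least 1.95-fold higher. Both bounds are set against the level of the dim probe itself.

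Markers of other cells differed between the same arrays, and their part in the values of the members, the panels and the signals was not tested. With adrenalectomy 10 of 10 meningeal fibroblast genes were lower past the limit at ZT10 and 8 of 9 at ZT22, with median log2 ratios of -1.85 and -1.96. Their summed level was 18561 and 16040 in sham+PSL mice at ZT10 and ZT22, and 5602 and 5839 in ADX+PSL mice, and the brightest was Dcn, at 6864 and 6121 in sham+PSL mice and 2262 and 2580.2 in ADX+PSL mice. The 2 ADX+PSL arrays were low, which is also the order of Cp and Serping1. On their brightest probes 9 of 38 members had it too, against 15.7% of all genes. These were Slc4a4, Clu, Apoe, Fabp7, Nes, Timp1, Serpina3n, Slc25a18 and Ttyh1. Their mean differences ran from -0.76 (Timp1) to -0.08 (Clu), beside a median of -1.87 for the fibroblast genes. The opposite order was that of the brightest probes of 7 members, against 19.2% of all genes. These were Sox9, Cst3, Mt3, Slc39a12, Id4, Cd44 and Plcd4. At the shares of all genes 38 members would give 5.95 and 7.29, so both counts are near the background. The other measured Cd44 probe had the order of the fibroblast genes. Slc4a4 probe A_52_P457567 did not have it, with operation ratios of 0.72 at ZT10 and -0.06 at ZT22. Nor did the dimmest Ttyh1 probe, with 0.52 and -0.15. Some of the other Plcd4 probes overlapped between the operations. Ogn was at -3.11 and -3.42, the collagen gene Col1a1 at -2.43 and -2.31 and Col3a1 at -2.41 and -2.26, while Lum was at -2.49 at ZT10 and at -0.54, inside the limit, at ZT22. Igf2, a fibroblast marker, was not well above background on the ADX+PSL ZT22 array.

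Schwann cell genes, 6 of 7 named on the array, summed to 768 and 495 in sham+PSL mice and to 187 and 189 in ADX+PSL mice. Prx, the brightest on the sham+PSL arrays, read 466 and 247 in sham+PSL mice and 40.9 and 36.3 in ADX+PSL mice. Cdh19, the brightest on the ADX+PSL arrays, read 116 and 134 in sham+PSL mice and 95.2 and 112 in ADX+PSL mice, and Pmp2 was well above background on none of the 4 arrays. Of those measured 2 of 3 were past the limit as lower with adrenalectomy at ZT10 and 1 of 2 at ZT22. Red blood cell genes, all 6 measured, summed to 135912 and 18767 in sham+PSL mice at ZT10 and ZT22 and to 95075 and 89810 in ADX+PSL mice, with Hba-a2 the brightest. All 6 were past the limit as higher at ZT10 in sham+PSL mice and 5 of 6 as higher with adrenalectomy at ZT22. The sham+PSL ZT22 array was thus the low one for haemoglobin, as it was for Mt3 and Itih3 among the members past the limit. It was the high one for Timp1 among these members, and for Osmr, Cxcl10 and Aspg. The Itih3 levels put all 4 arrays in the same order as the sums of red blood cell genes. Of these genes, Hba-a1, Hba-a2, Alas2 and Slc4a1 had that order. Hbb-b1 and Hbb-b2 did not, since they were higher on the ADX+PSL ZT22 array than on the ADX+PSL ZT10 array. How many other members or genes have this order was not counted, and a link was not tested. Fast skeletal muscle genes summed to 2961 in sham+PSL mice at ZT10 and to 454, 360 and 348 on the sham+PSL ZT22, ADX+PSL ZT10 and ADX+PSL ZT22 arrays, with Myh4 the brightest on the first of these arrays, Tnni2 on the other 3, and Mylpf well above background on none of the 4. Of these 9 genes 6 were measured for time in sham+PSL mice, and all 6 were past the limit, while for adrenalectomy 4 of 5 were lower at ZT10 and 1 of 5 at ZT22.

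For adrenalectomy, the lists for cells of the cord itself had smaller median ratios than the meningeal fibroblast genes. For time this did not hold for all of them, since the fibroblast medians were 0.14 in sham+PSL mice and -0.01 in ADX+PSL mice. The 10 microglial genes had median ratios of -0.43 and -0.34 for time in sham+PSL and ADX+PSL mice and of -0.23 and -0.31 for adrenalectomy at ZT10 and ZT22. Past the limit were 1 and 2 of 10 as lower for time and 0 of 10 for adrenalectomy. Their sum was 88946 and 113977 in sham+PSL mice and 89596 and 99637 in ADX+PSL mice, with Itgam the brightest, so that both ZT22 arrays were the high ones, as for Aqp4 and S100b. The 10 neuronal genes had medians of 0.08, 0.13, -0.03 and -0.06 in the same 4 comparisons and sums of 288583, 266660.0, 276358 and 256681, with Nefl the brightest and 0 past the limit. The 10 oligodendrocyte-lineage genes had medians of -0.16, -0.13, -0.02 and -0.17 and sums of 411002, 435942, 408705 and 399093, with 1 gene, Opalin, past the limit as lower at ZT10 in sham+PSL mice. Of 8 ependymal genes 7 were on the array, with medians of -0.12, 0.17, 0.51 and -0.02, sums of 2982, 2926, 3297 and 2912, with Rarres2 the brightest on the sham+PSL arrays and Foxj1 on the ADX+PSL arrays, and Dynlrb2 was past the limit as higher with adrenalectomy at ZT10. The 10 endothelial and mural genes had medians of -0.02, -0.16, -0.30 and 0.01 and sums of 20904, 17609, 17260.0 and 22301, with 2 of 9 higher and 2 of 9 lower for time in the respective operations, 3 of 10 lower for adrenalectomy at ZT10 and 1 of 9 each way at ZT22, Ly6c1 the brightest and Myh11 not well above background on the ZT22 arrays. Sums are given in the order sham+PSL ZT10, sham+PSL ZT22, ADX+PSL ZT10 and ADX+PSL ZT22.

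**Figure D5:**
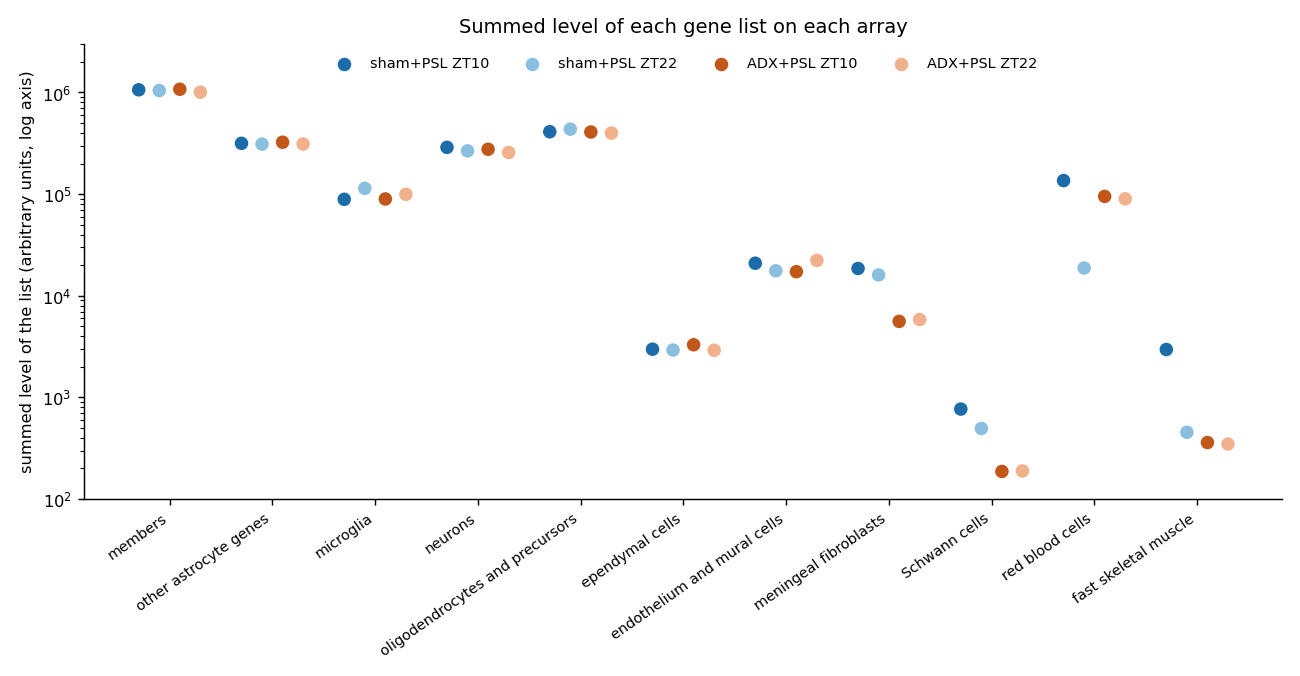
Summed level of the members, of the other astrocyte genes and of the marker lists of other cells on each array, in arbitrary units on a log axis. Each point is the sum over the brightest probes of a list on 1 array, in which the brightest genes weigh most. The sums of the members lie between 1007371 and 1076054, whereas those of meningeal fibroblast genes lie at 18561 and 16040.0 in sham+PSL and 5602 and 5839 in ADX+PSL mice.

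On their brightest probes the 18 members not given in full stayed inside the limit. Their log2 ratios ran from -0.48 (Hes5) to 0.35 (Ndrg2) for time in sham+PSL mice, from -0.14 (Slc25a18) to 0.38 (Aldoc) for time in ADX+PSL mice, from -0.23 (Slc25a18) to 0.43 (Hes5) for adrenalectomy at ZT10 and from -0.38 (Id3) to 0.24 (Id4) at ZT22.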

How the data were processed

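The RNA of 4 spinal cord samples was read on 1-colour Agilent 60-mer arrays, 1 array per group. The deposited intensity values were made by the authors with Agilent Feature Extraction, version 9.5.1.1 in the submitters' processing notes and 10.7.1.1 in the file headers, and were quantile-normalized, so that the sorted values are the same on each array and the median level is 105 on each. The table is on a linear scale, and its log2 values correlated with the log2 processed signals of the same array at r above 0.999. Normalization of pairs of arrays, as in the methods, was an alternative. Each array had 44397 spots, of which 1377 controls were left out. No further normalization was applied. Flags and spot errors came from the scanner files, and a probe printed several times was taken as well above background where at least a share of 0.5 of its spots were. Per gene name the probe with the highest mean level was used. Ratios need both levels to be well above background, and a single dim level gives a bound. The additive fit used lmFit and eBayes of limma 3.58.1 (R 4.3.3) on log2 levels, over the probes read as well above background on any array, and p was adjusted by Benjamini-Hochberg. It had 1 residual degree of freedom and a prior of 1.89, and a time effect that differs between the operations enters it as error, so such a difference was not tested. The other steps used Python 3.11.15, numpy 2.4.6, pandas 2.3.3 and matplotlib 3.10.9. The scripts were tested on simulated data. Full values are given for members past 1.5-fold in a comparison, for those whose operations did not overlap with a mean log2 difference of at least 0.3, and for 9 identity genes whatever they did, 20 members in all. From 14 other lists, with 165 genes named on the array, some of the genes past 1.5-fold are named. Other alternatives were the normalization, the background correction, the probe of a gene, the filter on dim probes, outlier spots, the fold limit, the variance prior, the model and leaving out an array. The 4 arrays share a slide, so slide could not act as a batch. The members and lists were chosen with earlier results of these data known.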

Additional observations from a re-analysis of the deposited data

How the results depend on the processing

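Of the counts of members under alternative settings, 19 moved by more than 1.5 times. The medians of the members changed sign under some settings. Without normalization the median for time in ADX+PSL mice was -0.00 in place of 0.11, and that for adrenalectomy at ZT22 was 0.05 in place of -0.09. Less the median of all genes in the same setting, these medians kept their sign. They were then 0.10 in place of 0.11 for time in ADX+PSL mice and -0.07 in place of -0.10 for adrenalectomy at ZT22. With a 2-fold limit the members past it were 0 in place of 3 for time in sham+PSL mice, 1 in place of 5 for time in ADX+PSL mice, 1 in place of 2 for adrenalectomy at ZT10 and 1 in place of 3 at ZT22, by construction of the stricter limit. The shares of all genes past a 2-fold limit, or past 1.5-fold under the other settings, are not given, so these counts are not set against them. At the 1.5-fold limit the count for adrenalectomy at ZT10 was 4 in place of 2 with no normalization between arrays. It was 0 with the mean over the probes of a gene. Those lower were 3 and 0 in these settings, in place of 1, and those higher 1 and 0, in place of 1. For time in sham+PSL mice the members lower past the limit were 0 with normexp or the mean signal and 2 with the mean over probes, in place of 1. The cause was not tested beyond the probe differences given above. Leaving out each array in turn gave 23 to 29 members without overlap for operation in place of 16, and 24 to 28 for time in place of 14, since fewer arrays have to be in order. The shares of all genes without overlap on fewer arrays are not given, so these counts say nothing about the members as a group. The 13 member ratios past 1.5-fold had 10 alternatives each, of which 34 values could not differ, since the filters on dim probes leave members well above background on all arrays as they are and the mean over probes leaves members with 1 probe. Of the other 96 values 96 kept their direction and 90 were past 1.5-fold. Those inside it were Timp1 for time in sham+PSL mice and Lcn2 for time in ADX+PSL mice with normexp or with the mean signal (-0.56 at the smallest for Timp1 and 0.53 for Lcn2), and Gfap and Cd44 for adrenalectomy at ZT10 with the mean over probes. The Gfap time ratio in ADX+PSL mice ran from -1.20 to -0.60. The additive fit called 0 members under each alternative run; among all probes it called 39 for operation and 14 for time with an intensity trend, 13 and 11 with the filter on dim probes set to all 4 arrays, 10 and 9 with normexp, and 6 and 0 without the other factor, against 0 and 0. Without normalization the median of all genes moved to -0.11 for time in ADX+PSL mice and to 0.13 for adrenalectomy at ZT22. No pairing by mouse was possible, because each group has 1 array and the labels tie no mouse across groups beyond the number 1. The additive fit already compares the operations within times and the times within operations. The ratios of Lcn2 and Timp1 were smaller with the other background settings and that of Cd44 at ZT10 with the mean over probes, and no ratio can be set against the spread between mice.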
